A study of Mus musculus with 8 samples.

Results

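The ephrin, semaphorin, Slit and netrin guidance genes are the ligands and receptors that steer growing axons and, in the same way, growing vessels. The members were chosen by gene symbol alone from the protein-coding genes of the mouse GENCODE vM1 annotation on the mm9 build. The symbols covered 14 Eph receptors, 8 ephrins, 20 semaphorins of classes 3 to 7, 9 plexins, 3 Slits, 4 Robo receptors, 4 Unc5 receptors and 4 netrins. This gave 66 genes of 22225, of which 35 encode ligands and 31 encode receptors. The rule itself uses no measured value.

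The study mapped histone marks in subcutaneous tumor isografts of Lewis lung carcinoma, a mouse lung tumor line, grown in young female C57BL/6J mice. LLC-NR is the line sensitive to VEGF-Trap, a decoy receptor that binds vascular endothelial growth factor. LLC-R is a resistant line derived from parental Lewis lung carcinoma cells by repeated selection in mice under continuous VEGF-Trap. Nuclei of the tumor tissue were digested with micrococcal nuclease and immunoprecipitated with antibodies to H3K4me3, H3K9ac, H3K27me3 and H3K36me3. There was 1 library for each line and mark, 8 in all, so no difference between the lines has a replicate check and no test was made. LLC-R is a single selected line. The tissue was whole tumor with its vessels and infiltrating host cells, so a larger number of cells carrying a mark cannot be told apart from more of the mark in each cell.

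Eph receptors are tyrosine kinases that bind ephrins on the surface of a neighboring cell, and both partners signal on contact. Class 3 semaphorins are secreted and act mainly through neuropilin and plexin receptors, Slits act through Robo receptors, and netrins act through DCC and Unc5 receptors. In blood vessels these systems set artery and vein boundaries and turn endothelial tip cells toward or away from a cue. H3K4me3 and H3K9ac are marks of promoters open to transcription, H3K27me3 is the repressive mark laid down by Polycomb complexes, and H3K36me3 follows elongating polymerase through the body of transcribed genes. Promoters that carry H3K4me3 together with H3K27me3 are called bivalent and are typical of developmental regulators.

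The deposited values were positions of peaks 147 bp wide, the length of nucleosomal DNA, with no height or read number. The libraries held between 5660458 and 9101721 peaks. The level of a mark at a promoter was the number of peak midpoints between 1 kb before and 0.5 kb after the transcription start site (TSS), and the level in a gene body was the number of midpoints per kb. Peaks did not overlap, and no promoter in any library held more than 9. Windows of 1.5 kb at least 5 kb from any annotated TSS held on average 3.22 H3K4me3 peaks in each line, 4.92 and 4.53 H3K9ac peaks, 4.24 and 5.31 H3K27me3 peaks and 3.70 and 5.07 H3K36me3 peaks (LLC-NR and LLC-R). Promoter numbers are therefore read against this background, and a difference of 1 peak is the smallest step the files can show.

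Guidance promoters were rich in CpG and guidance genes were long. By CpG content, 56 of 66 promoters were high-CpG promoters (HCPs, 84.8%), compared with 53.9% of all promoters, and 5 were intermediate and 5 low. The median gene length was 42.0 kb against 15.5 kb for all genes, and 28 members (42.4%) were at least 100 kb long against 10.8% of all genes. The longest were Epha6, an Eph receptor gene at chr16:59653309-60605357 (952 kb), Slit3 at chr11:34934726-35522009 (587 kb), which encodes a secreted Robo ligand, and Sema6d at chr2:123915705-124493506 (578 kb), which encodes a transmembrane semaphorin. Several members lie next to each other. Robo3 and Robo4 are 1.646 kb apart on chromosome 9, Efna3 and Efna4 are 10.425 kb apart on chromosome 3 with Efna1 32.757 kb further on, and Sema3d, Sema3a and Sema3e follow each other on chromosome 5. Members in such pairs share flanking chromatin and were not separate observations of it.

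The 200 bases before the TSS are printed for 7 members to show the range of promoter sequence behind the values that follow. They were read from the NCBIM37 (mm9) genome on the strand of the gene, 5′ to 3′, with each CpG dinucleotide in capitals. Efnb2 had the highest ratio of observed to expected CpG among the 66 promoters (0.912) and Plxnb3 the lowest (0.0865), and the other 5 are vessel guidance genes whose marks are described below. Plxnd1 and Unc5b encode endothelial receptors for semaphorin and netrin, Slit2 and Robo1 are a ligand and its receptor, and Ntn1 encodes netrin-1.
Efnb2, chr8:8661240-8661439, minus strand: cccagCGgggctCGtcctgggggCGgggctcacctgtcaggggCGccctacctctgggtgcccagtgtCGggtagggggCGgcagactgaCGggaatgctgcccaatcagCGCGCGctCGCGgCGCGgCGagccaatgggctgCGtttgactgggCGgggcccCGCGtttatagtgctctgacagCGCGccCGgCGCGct
Plxnb3, chrX:71002229-71002428, plus strand: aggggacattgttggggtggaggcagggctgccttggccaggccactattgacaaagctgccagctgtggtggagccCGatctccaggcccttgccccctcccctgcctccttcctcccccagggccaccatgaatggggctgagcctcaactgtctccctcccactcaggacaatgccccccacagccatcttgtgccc
Plxnd1, chr6:115945024-115945223, minus strand: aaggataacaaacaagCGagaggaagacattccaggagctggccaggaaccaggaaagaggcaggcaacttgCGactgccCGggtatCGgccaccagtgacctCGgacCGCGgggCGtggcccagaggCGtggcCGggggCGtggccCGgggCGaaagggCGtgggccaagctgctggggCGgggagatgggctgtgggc
Unc5b, chr10:60294330-60294529, minus strand: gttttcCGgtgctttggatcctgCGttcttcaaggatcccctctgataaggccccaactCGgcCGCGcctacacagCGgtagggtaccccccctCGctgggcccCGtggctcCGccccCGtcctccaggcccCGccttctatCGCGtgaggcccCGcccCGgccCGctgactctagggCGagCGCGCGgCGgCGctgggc
Slit2, chr5:48374194-48374393, plus strand: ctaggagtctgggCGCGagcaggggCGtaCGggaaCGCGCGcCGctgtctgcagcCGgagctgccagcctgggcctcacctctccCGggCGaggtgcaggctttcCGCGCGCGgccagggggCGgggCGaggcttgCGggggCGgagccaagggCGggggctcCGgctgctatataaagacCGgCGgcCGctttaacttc
Robo1, chr16:72663194-72663393, plus strand: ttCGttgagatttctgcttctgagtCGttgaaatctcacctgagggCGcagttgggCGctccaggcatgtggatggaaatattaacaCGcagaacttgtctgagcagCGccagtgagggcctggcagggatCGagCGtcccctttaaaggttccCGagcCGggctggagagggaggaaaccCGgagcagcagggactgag
Ntn1, chr11:68214326-68214525, minus strand: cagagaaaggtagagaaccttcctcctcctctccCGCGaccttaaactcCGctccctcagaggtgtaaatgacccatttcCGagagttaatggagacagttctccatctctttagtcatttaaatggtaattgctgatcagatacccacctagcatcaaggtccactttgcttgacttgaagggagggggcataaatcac
These stretches held 24 CpG in Efnb2, 24 in Slit2, 22 in Unc5b, 15 in Plxnd1, 11 in Robo1, 4 in Ntn1 and 1 in Plxnb3.

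The question for the promoters of each line was which marks the guidance genes carried relative to other genes. Of the 3 promoter marks, H3K27me3 set the guidance promoters apart most from all promoters. The mean was 5.58 ± 1.29 in the sensitive tumor (SD over 66 genes) against 4.56 over all promoters, and 6.48 ± 0.864 in the resistant tumor against 5.46. In LLC-NR 57 of 66 promoters (86.4%, exact Clopper-Pearson 95% interval 75.7 to 93.6) were at or above the mean of all promoters, where 56.6% of all promoters were. In LLC-R 60 of 66 (90.9%, 81.3 to 96.6) were at or above it, where 58.8% of all promoters were. The gap was also there among HCPs alone, where 87.5% and 91.1% of guidance promoters reached the mean in LLC-NR and LLC-R, against 56.8% and 57.8% of all HCPs. These intervals cover counting error only, and the genes are not replicates of a condition.

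H3K4me3 was higher than over all promoters but not than over HCPs. Guidance promoters averaged 5.70 ± 1.35 in the sensitive and 5.30 ± 1.25 in the resistant tumor, against 4.92 and 4.61 over all promoters. The 56 guidance HCPs held 5.89 and 5.50, against 6.06 and 5.61 for all HCPs. In LLC-NR 54 members were at or above the mean of all promoters (background 63.9%), and in LLC-R 51 were (background 58.9%). H3K9ac was close to the genome-wide level, with 5.42 and 5.0 peaks against 5.51 and 4.97. In LLC-NR 37 members were at or above the H3K9ac mean (background 62.3%) and in LLC-R 49 were (background 70.5%). That share in LLC-R lay below the one of all promoters in most other settings, at 34.8% against 46.8% from -0.5 to +0.5 kb, 59.1% against 65.4% from -1 to +1 kb, 50% against 58.9% with any overlap counted and 33.3% against 42.5% with the HCP mean as threshold. Guidance HCPs held 5.29 H3K9ac peaks in LLC-NR against 5.86 for all HCPs, and 4.98 in LLC-R against 5.25.

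**Figure D1:**
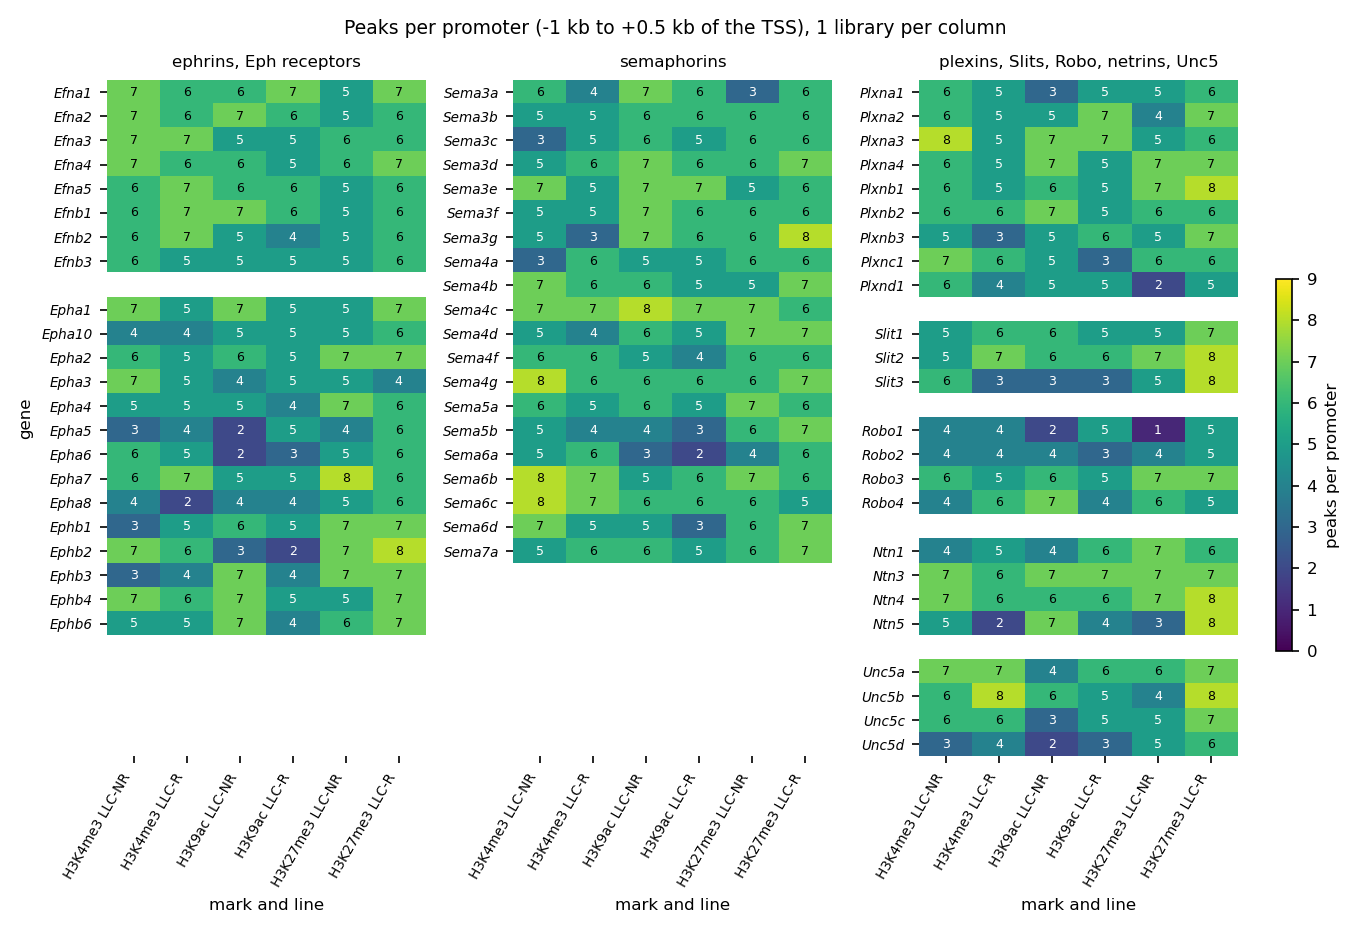
Peaks per promoter for each of the 66 guidance genes (rows, by family) in the libraries of the 3 promoter marks and both lines (columns, 1 library each); the color scale runs from 0 to 9 peaks. The H3K27me3 column of LLC-R is the most even, from 4 to 8 peaks, while Robo1 in LLC-NR holds 1 H3K27me3 peak and the ephrins hold 5 or 6 in that library.

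Around the TSS the excess of H3K27me3 extended over most of the region examined. From 2 to 3 kb downstream, guidance HCPs held 3.82 H3K27me3 peaks per kb in LLC-NR against 2.75 for all HCPs, and 4.36 in LLC-R against 3.81. In the 150 bp just before the TSS they held 3.69 per kb in LLC-NR against 2.59, and 4.88 in LLC-R against 3.14. From 50 to 250 bp after the TSS H3K4me3 reached 5.09 per kb in LLC-NR for guidance HCPs and 4.59 for all HCPs, and 4.73 and 4.46 in LLC-R. From 0 to 150 bp it was instead lower in guidance HCPs, at 4.52 against 4.62 in LLC-NR and 3.81 against 4.33 in LLC-R. The direction for H3K4me3 thus depended on the window. H3K9ac from 50 to 250 bp was lower in guidance HCPs, at 3.30 per kb in LLC-NR against 4.07 and 3.13 in LLC-R against 3.70.

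**Figure D2:**
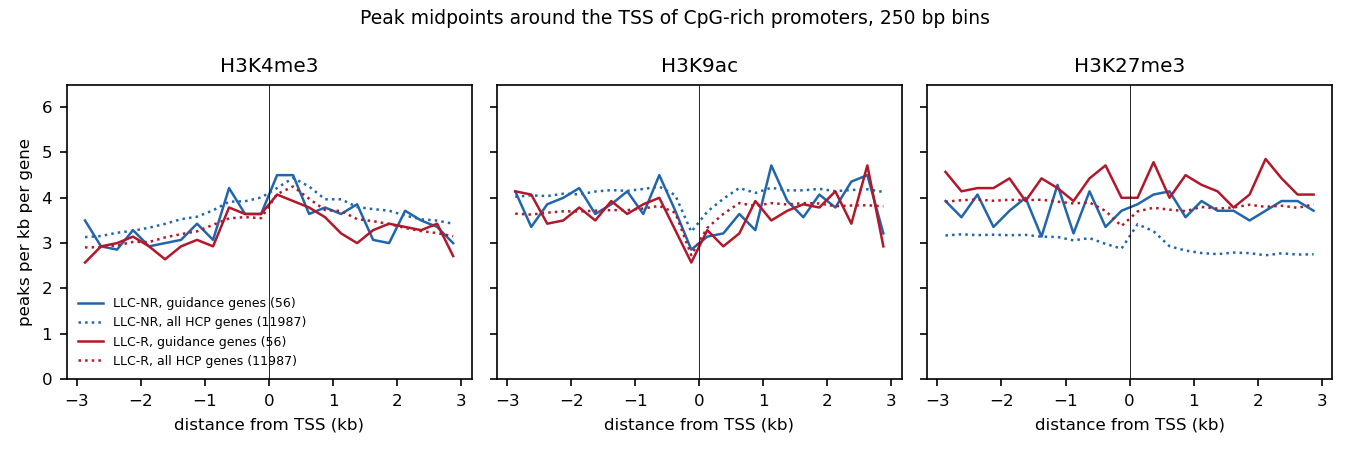
Peak midpoints per kb per gene (vertical axis, 250 bp bins) by distance from the TSS in kb (horizontal axis) for the 56 guidance HCPs (solid) and all 11987 HCPs (dotted), LLC-NR in blue and LLC-R in red. The solid H3K27me3 lines run above the dotted line of the same tumor over most of the region, while the H3K4me3 lines lie close together.

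Each promoter was then given a chromatin state in each line. It was called active where H3K4me3 or H3K9ac, or both, reached the mean of all promoters and H3K27me3 did not, bivalent where H3K27me3 reached it as well, repressive where only H3K27me3 did, and unmarked where none did. Bivalent here is wider than H3K4me3 together with H3K27me3, since H3K9ac alone sufficed, as at Ephb1 with 3 H3K4me3 peaks in LLC-NR. The H3K27me3 thresholds of 4.56 and 5.46 were also close to the background window means of 4.24 and 5.31 (LLC-NR and LLC-R). In LLC-NR 52 of 66 guidance promoters (78.8%, 95% interval 67.0 to 87.9) were bivalent, and 48.5% of all promoters were. In LLC-R 54 (81.8%, 70.4 to 90.2) were bivalent, and 53.1% of all promoters were. Among HCPs 46 of 56 guidance promoters (82.1%) were bivalent in LLC-NR against 52.2%, and 47 (83.9%) in LLC-R against 54.6%. Only 6 members were active in the sensitive and 5 in the resistant tumor, where 29.8% and 28.3% of all promoters were. The thresholds are whole peaks in practice. Between 20 and 35 members were within 1 peak of the threshold, depending on the library.

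The state was more often kept than lost between the lines. Bivalent in both lines were 46 members (69.7%, background 35.1%), and 16 members (24.2%) changed state, where 37.9% of all promoters did. All 8 ephrins were bivalent in both lines. Their H3K4me3 numbers lay between 6 and 7 in the sensitive and between 5 and 7 in the resistant tumor. Their H3K27me3 numbers were 5 or 6 in the former and 6 or 7 in the latter. The ephrins were the most even family, with the smallest SD of H3K27me3 in either line (0.463 in both). Of the 20 semaphorins, 17 were bivalent in LLC-NR and 18 in LLC-R. Of the 14 Eph receptors, 11 were in each line. Of the 4 Robo receptors 2 were bivalent in LLC-NR and 1 was in LLC-R, the smallest share of any family in the resistant tumor.

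The exceptions were few and can be named. Plxnd1, the receptor of Sema3e, was active in both lines. Robo2, a Slit receptor of commissural axons, reached no mean in either line. Epha8 and Unc5d, an Eph receptor and a netrin receptor of neurons, were repressive in both. Active in LLC-NR and bivalent in LLC-R were Plxna2, Sema3a, Sema6a and Unc5b. Bivalent in LLC-NR and active in LLC-R were Epha3, Robo4 and Sema6c. Ephb3, Sema5b and Slit3 were bivalent in LLC-NR and repressive in LLC-R, and Ntn5 was active in LLC-NR and repressive in LLC-R. In the 1 Mb on each side of Ephb3 and Sema5b, scaled H3K4me3 peaks had log2 ratios (LLC-R over LLC-NR) of -0.27 and -0.24. The ratio was 0.07 beside Slit3 and 0.10 over the body of Sema5b. The part of the region in these promoter changes was not tested. Epha10, Ntn1 and Sema4a were repressive in LLC-NR and bivalent in LLC-R. Robo1 and Epha5 had no mark at the mean in LLC-NR, and in LLC-R Robo1 was active and Epha5 bivalent. Several of these changes rest on 1 peak, as for Sema5b, which went from 5 to 4 H3K4me3 peaks. Epha10 held 4 H3K4me3 and 5 H3K9ac peaks in each line, so its change rests on the lower H3K9ac threshold of LLC-R. Plxnd1, Robo1, Robo4 and Sema6c, active in LLC-R, held 5 H3K27me3 peaks there, a number that reaches the threshold of LLC-NR but not that of LLC-R. The changes of Robo4 and Sema6c, each from 6 to 5 H3K27me3 peaks, thus also rest on the higher threshold of LLC-R.

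The next question was how the promoters differed between the resistant and the sensitive tumor. Over the 66 members, LLC-R held fewer H3K4me3 peaks than LLC-NR at 35 promoters, the same number at 13 and more at 18. It held fewer H3K9ac peaks at 36, the same at 17 and more at 13. It held fewer H3K27me3 peaks at 9, the same at 15 and more at 42. The mean differences (LLC-R minus LLC-NR) were -0.39 ± 1.36 H3K4me3 peaks, -0.42 ± 1.35 H3K9ac peaks and 0.91 ± 1.33 H3K27me3 peaks (SD over genes). Over all promoters they were -0.31, -0.54 and 0.90. Of all promoters 43.5% had fewer H3K4me3 peaks in the resistant tumor, 50.5% fewer H3K9ac peaks and 58.5% more H3K27me3 peaks, against 53.0%, 54.5% and 63.6% of members, so the H3K27me3 difference in particular was near the background. The H3K27me3 library of LLC-R also held more peaks genome-wide, and its background windows held 5.31 against 4.24 in LLC-NR.

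Counted as a change were differences of at least 2 peaks. H3K4me3 was lower in LLC-R by that much at 13 guidance promoters (19.7%, background 18.4%) and higher at 6 (9.09%, background 8.97%), so these shares were near the background. H3K9ac was lower at 10 (15.2%, background 22.1%) and higher at 7 (10.6%, 95% interval 4.37 to 20.6, background 5.38%). H3K27me3 was lower at 1 (1.52%, background 3.48%) and higher at 17 (25.8%, background 32.0%). When LLC-R was scaled to the total peaks of LLC-NR, H3K27me3 was instead higher at 9.09% of members and lower at 13.6%, and at 12.3% and 14.9% of all promoters. The direction of the H3K27me3 shift therefore depends on the scaling, for guidance genes and for all genes alike. With the same scaling H3K9ac was higher at 15.2% of members and 15.1% of all promoters, which left no excess over the background. Fewer H3K4me3, fewer H3K9ac and more H3K27me3 peaks together were found at 12 members (18.2%), among them Ephb4, Sema3a and Ntn5, and at 14.0% of all promoters. The opposite pattern was found at Ntn1 alone of the members and at 0.864% of all promoters.

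**Figure D3:**
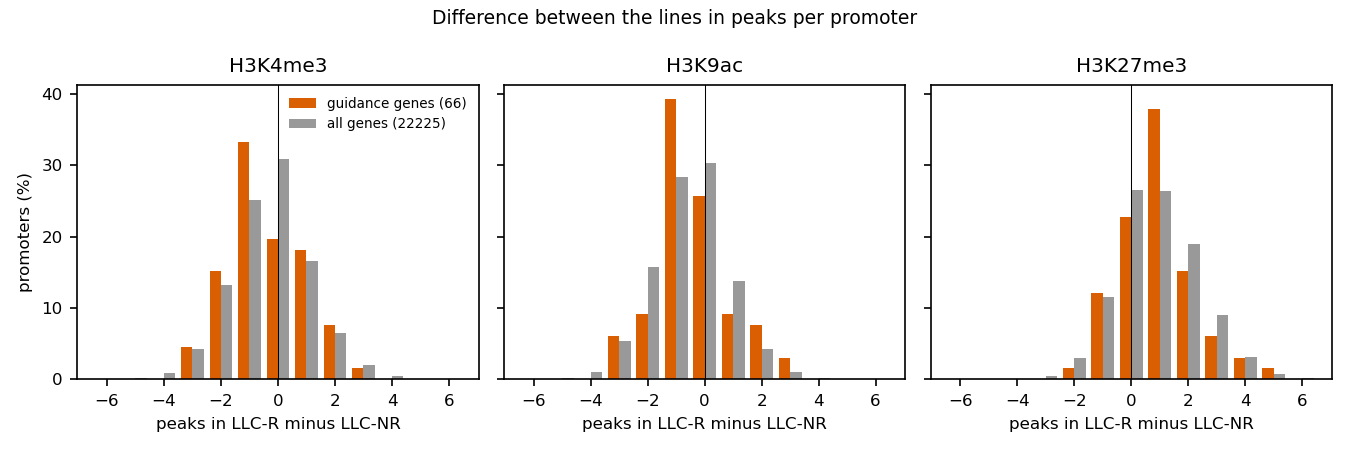
Share of promoters (vertical axis, %) by the difference in peaks per promoter, LLC-R minus LLC-NR (horizontal axis), for the 66 guidance genes (orange) and all 22225 genes (grey). The guidance genes lie between -3 and 5 over the 3 panels, and H3K27me3 lies mostly to the right of 0 for guidance genes and for all genes.

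In the gene by gene account, peaks per promoter are given from the sensitive to the resistant tumor. Efnb2 encodes ephrin-B2, the arterial ligand. It went from 6 to 7 for H3K4me3, from 5 to 4 for H3K9ac and from 5 to 6 for H3K27me3, so no mark differed by more than 1 peak. Efna1 encodes ephrin-A1, a ligand found in tumor vessels. It went from 7 to 6 for H3K4me3, from 6 to 7 for H3K9ac and from 5 to 7 for H3K27me3. Of these only the last was a difference of 2 peaks. A short second gene model with the symbol Efna5, nested in the first, was left out. Its own TSS had 3 H3K4me3 peaks in either tumor.

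Semaphorin promoters included large single differences in both directions. Sema3a encodes a secreted repellent of axons and endothelial cells that signals through neuropilin-1. Its H3K4me3 went from 6 to 4, its H3K9ac from 7 to 6 and its H3K27me3 from 3 to 6. The activating marks were thus lower and the repressive mark higher in the resistant tumor. Sema3e encodes the ligand of plexin-D1. Its H3K4me3 went from 7 to 5 and its H3K27me3 from 5 to 6, with 7 peaks of H3K9ac in either tumor. Sema4a encodes a membrane semaphorin of immune cells and has one of the 5 low-CpG promoters. For H3K4me3 it went from 3 to 6, the largest excess of that mark in LLC-R among the members, while H3K9ac stayed at 5 and H3K27me3 at 6. Sema5a, a transmembrane semaphorin, was one of the 9 members with less H3K27me3 in the resistant tumor, from 7 to 6.

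Slits had the highest H3K27me3 mean of any family in LLC-R, with 7 peaks at Slit1 and 8 at both Slit2 and Slit3. In the sensitive tumor the same promoters had 5, 7 and 5. Slit2 encodes the Slit best known in vessels. Its H3K4me3 went from 5 to 7, with 6 peaks of H3K9ac in either tumor. Slit3 differed from it, with H3K4me3 going from 6 to 3 and H3K9ac at 3 throughout. The paralogs thus had opposite differences in H3K4me3 and like ones in H3K27me3.

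Netrin promoters ranged from 3 to 7 H3K27me3 peaks in the sensitive and from 6 to 8 in the resistant tumor. Ntn5, which encodes a little studied netrin and has a low-CpG promoter, had the largest H3K27me3 difference of all members, from 3 to 8. Its H3K4me3 went from 5 to 2 and its H3K9ac from 7 to 4, each among the widest of its mark. Ntn1 encodes the netrin that binds DCC and Unc5 receptors. Its H3K4me3 went from 4 to 5, its H3K9ac from 4 to 6 and its H3K27me3 from 7 to 6. It was the one member with more of both activating marks and less H3K27me3 in the resistant tumor. Ntn4, which encodes a basement membrane netrin of vessels, differed little, from 7 to 6 for H3K4me3 and from 7 to 8 for H3K27me3, with H3K9ac at 6.

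Among the receptors, Epha2 encodes the receptor of ephrin-A1 and is common in carcinoma cells. Its H3K4me3 and H3K9ac each went from 6 to 5, and its H3K27me3 stayed at 7. Ephb4, the venous receptor of ephrin-B2, went from 7 to 6 for H3K4me3, from 7 to 5 for H3K9ac and from 5 to 7 for H3K27me3. Its ligand Efnb2 differed by 1 peak in each mark. Ephb1, an Eph receptor of neurons, went from 3 to 5 for H3K4me3 and from 6 to 5 for H3K9ac, with H3K27me3 at 7. Ephb3 and Ephb6 each went from 7 to 4 for H3K9ac, the widest deficit of that mark, which they shared with Ntn5 and Robo4. The TSS used for Ephb3 lies 6.34 kb from its most upstream annotated TSS, where H3K9ac went from 5 to 4. The size of the difference at Ephb3 thus depends on the TSS. Epha5, another receptor of neurons, went from 2 to 5 for H3K9ac. Epha7 was the one member with at least 2 fewer H3K27me3 peaks in the resistant tumor, from 8 to 6, and Epha3 went from 5 to 4.

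Plexins had the widest family difference in H3K4me3, with a mean of 6.22 ± 0.833 in the sensitive and 4.89 ± 0.928 in the resistant tumor (SD over 9 genes). No plexin had more H3K4me3 peaks in the resistant tumor, and Plxnb2, at 6, was the one with no difference. Plxna3, a semaphorin coreceptor on the X chromosome, went from 8 to 5, one of the 3 largest deficits among the members. Plxnd1 (chr6:115904829-115945023) went from 6 to 4 for H3K4me3 and from 2 to 5 for H3K27me3, with H3K9ac at 5. Its 2 H3K27me3 peaks in LLC-NR were the second lowest number among the members. Plxnb3, with the lowest CpG ratio, went from 5 to 3 for H3K4me3 and from 5 to 7 for H3K27me3.

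Robo receptors had low numbers of several marks. Robo1 (chr16:72663394-73046340), the Slit2 receptor, went from 2 to 5 for H3K9ac and from 1 to 5 for H3K27me3, with H3K4me3 at 4. Its single H3K27me3 peak in LLC-NR was the lowest number of any member, and lower than the mean of 4.24 in background windows. Robo4 (chr9:37209482-37221608), the Robo receptor of endothelial cells, has a low-CpG promoter. It went from 4 to 6 for H3K4me3, from 7 to 4 for H3K9ac and from 6 to 5 for H3K27me3, so the activating marks differed in opposite directions.

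Unc5 receptors had a mean of 5.0 H3K27me3 peaks in the sensitive and 7.0 in the resistant tumor, with ranges of 4 to 6 and 6 to 8. Unc5b (chr10:60225358-60294329), the netrin receptor of endothelial tip cells, had the widest difference of these, from 4 to 8. H3K4me3 there went from 6 to 8 and H3K9ac from 6 to 5. Unc5a and Unc5c, receptors of neurons, went from 4 to 6 and from 3 to 5 for H3K9ac, while their H3K4me3 stayed at 7 and 6.

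The positions of the peaks show where the numbers came from. At Plxnd1 the 2 H3K27me3 peaks of LLC-NR had midpoints at -156 and 135 bp from the TSS, and the 5 of LLC-R spread from -829 to 467 bp. At Robo1 the single LLC-NR peak lay at -547 bp, and those of LLC-R included 2 after the TSS, at 44 and 317 bp. At Unc5b the LLC-NR library had no H3K27me3 midpoint between -977 and -59 bp, where LLC-R had 4. At Ntn5 the 8 H3K27me3 peaks of LLC-R covered the interval from -967 to 459 bp, and its H3K4me3 peaks of LLC-R lay only at -945 and 237 bp.

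**Figure D4:**
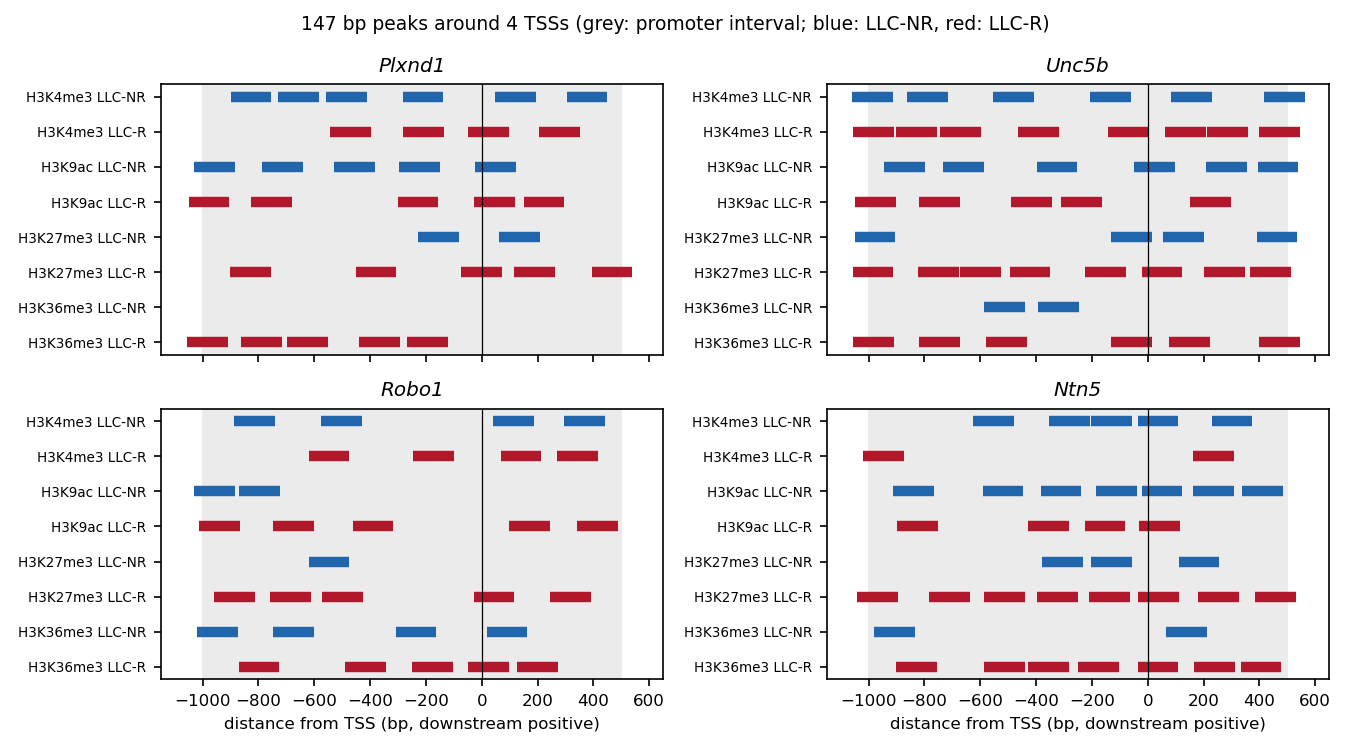
Peaks of 147 bp (bars) of the 4 marks in LLC-NR (blue) and LLC-R (red) by distance from the TSS in bp, downstream positive, at Plxnd1, Unc5b, Robo1 and Ntn5; the grey band is the promoter interval, and peaks with a midpoint in it are drawn. The H3K27me3 row of LLC-R is fuller than that of LLC-NR in all 4 panels, with 5, 8, 5 and 8 peaks against 2, 4, 1 and 3.

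Peaks of the 2 lines could also be compared by exact place. Of the H3K4me3 peaks at guidance promoters in LLC-NR, 36.2% (95% interval 31.3 to 41.3) had an LLC-R peak midpoint within 20 bp. The share was 37.5% over all promoters and 19.6% in background windows. For H3K9ac it was 36.9% (31.86 to 42.10) against 40.3% over all promoters and 31.94% in background windows, a value just inside that interval. For H3K27me3 it was 40.5% (35.4 to 45.7) against 35.3% over all promoters and 36.5% in background windows, a value inside that interval. Over guidance HCPs alone the shares were 38.2% (32.9 to 43.7) for H3K4me3, 39.2% (33.6 to 45) for H3K9ac and 40.4% (35.0 to 46.1) for H3K27me3, where all HCPs had 44.6%, 44.5% and 33.6%. The chance of a near midpoint rises with the number of peaks. Guidance promoters held more H3K27me3 peaks in LLC-R than all promoters did (6.48 against 5.46), also among HCPs alone (6.46 against 5.59). Most peaks of one line had no counterpart at the same place in the other, and a number that differs by 1 or 2 peaks between the lines is to be read with that in mind.

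Gene bodies were compared for the 45 members of at least 20 kb. H3K27me3 was dense over them. The mean was 3.28 ± 0.659 peaks per kb in LLC-NR against 2.79 for all genes of that length, with 34 of 45 members at or above the median of all. In LLC-R it was 4.02 ± 0.289 against 3.69, with 35 of 45 at or above the median. H3K36me3 was sparse in LLC-NR, where the mean was 2.81 ± 0.487 per kb against 3.10 and only 9 of 45 members (20%, 95% interval 9.58 to 34.6) reached the median of all genes. In LLC-R 18 of 45 (40%, 25.7 to 55.7) reached it, with a mean of 3.87 ± 0.290 against 3.81. The 9 members above the median in LLC-NR were Sema3e, Epha2, Ntn1, Plxna1, Efna5, Plxnb2, Plxnc1, Sema3a and Sema4b. Sema3e had the highest density, at 3.81 per kb. Epha2 held 3.73 per kb in LLC-NR and 4.44 in LLC-R, where it was at the 98th percentile of all genes. Unlike H3K36me3, the H3K27me3 density of Sema3e in LLC-NR was low, at 2.07 per kb.

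The ratio between the lines was formed per gene body after scaling each library to its total number of peaks. H3K36me3 was lower in LLC-R by more than 0.2 on the log2 scale in 5 members, where 43.1% of all genes were, and higher in 7, where 10.6% were. The lowest ratios were those of Sema3e (-0.36), Sema3a (-0.35), Efna5 (-0.27) and Ntn1 (-0.22), and Plxna1 (-0.21) followed. The highest were those of Epha8 (0.52), Sema6a (0.38), Ephb2 (0.31) and Slit1 (0.28), followed by Robo1, Slit3 and Epha6. Sema3a and Sema3e are neighbors, and the 1 Mb on each side had ratios of -0.14 and -0.09, so the ratios of the genes were lower than those of their flanks. For Epha8, Ephb2 and Slit1 the flanks had ratios of 0.05, 0.04 and -0.10. For Sema6a they had 0.16, and for Robo1 0.22 beside a gene ratio of 0.24, so Robo1 did not stand apart from its flanks.

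H3K27me3 over the bodies was lower in LLC-R by more than 0.2 in 11 members (background 16.6%) and higher in 8 (background 41.3%). The highest ratio was that of Plxnd1 (0.57), with 82 peaks in the sensitive and 153 in the resistant tumor, while its flanks had a ratio of 0.00. Sema3e, which encodes its ligand, had 0.48 with flanks at 0.07. Both genes were among those of lowest H3K27me3 density in LLC-NR, at 2.04 and 2.07 per kb, and all genes in that lowest quintile had a median ratio of 0.50. Robo1 had 0.43, but its flanks had 0.38. The lowest ratios were at Epha8 (-0.33), Sema4f (-0.32) and Sema4a (-0.29). H3K4me3 ratios over bodies were below -0.2 in 4 members (background 9.53%) and above 0.2 in 5 (background 12.1%). No member passed 0.2 in either direction in H3K9ac, where 1.81% of all genes were below -0.2 and 1.05% above 0.2.

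These ratios followed the density in LLC-NR, which is also the denominator of the ratio. Over all genes divided into quintiles by LLC-NR density, the median H3K27me3 ratio went from 0.50 in the lowest quintile to -0.23 in the highest, and that of H3K36me3 from 0.20 to -0.36. Members in the highest H3K27me3 quintile, 15 of them, had a median of -0.22, and the 12 in the lowest H3K36me3 quintile had a median of 0.21. Beside genes of the same LLC-NR density, the members as a set thus had similar ratios. Sema3a (-0.35) was below the median of its quintile (-0.14), and Epha8 (0.52) above that of its own (0.20).

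**Figure D5:**
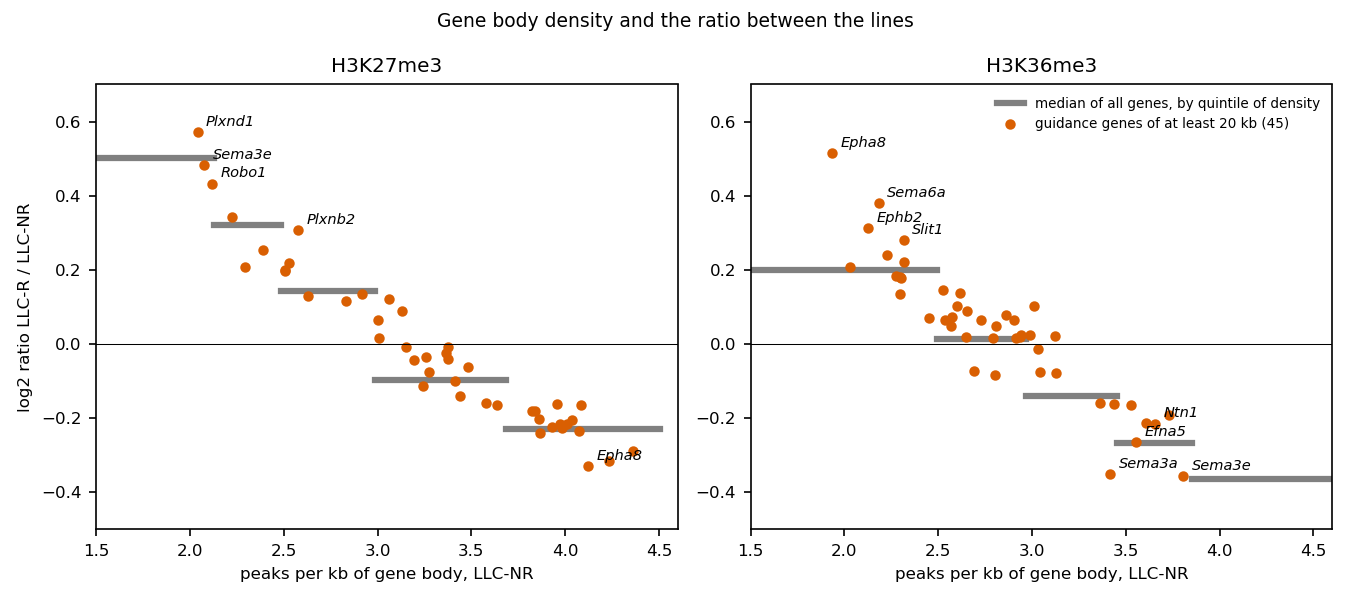
log2 ratio of gene body peaks, LLC-R over LLC-NR, after scaling to total peaks (vertical axis) against peaks per kb in LLC-NR (horizontal axis) for the 45 guidance genes of at least 20 kb (points), with the median of all genes in each quintile of density (grey bars, the lowest continuing left of the axis). Points run down from Plxnd1 at 0.57 to Epha8 at -0.33 for H3K27me3 and lie along the grey bars, as they do for H3K36me3.

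Partners of the listed families outside the 8 symbol groups were read from a list of 39 coreceptors, other ligands and signaling adaptors, of which 38 had a gene in the annotation. Their promoters averaged 5.24 ± 1.48 H3K27me3 peaks in the sensitive and 6.03 ± 1.26 in the resistant tumor, between the 66 members and all genes. Bivalent were 26 of 38 in LLC-NR (background 48.5%) and 24 in LLC-R (background 53.1%). H3K4me3 was at least 2 lower in LLC-R in 10 of the 38 (background 18.4%) and at least 2 higher in 2 (background 8.97%). By the same measure H3K9ac was lower in 9 (background 22.1%) and higher in 5 (background 5.38%). H3K27me3 was lower in 1 (background 3.48%) and higher in 9 (background 32.0%). Nrp1, the neuropilin that serves Sema3a and binds vascular endothelial growth factor, held 8 and 5 H3K4me3 peaks and 6 and 7 H3K27me3 peaks. Nrp2 held 5 H3K4me3 peaks in each line, and 7 and 5 H3K27me3 peaks. Dcc, the netrin receptor, held 1 and 7 H3K27me3 peaks.

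Promoters of cell type markers were counted beside these results. All 8 endothelial markers held H3K4me3 peaks in both lines, with a sum of 36 in the sensitive and 31 in the resistant tumor, and their H3K27me3 sums were 48 and 50. The 7 leukocyte markers summed to 35 and 29 H3K4me3 peaks. The 6 fibroblast and pericyte markers summed to 33 and 32 H3K4me3 peaks, the 5 epithelial ones to 26 and 27, the 4 lung ones to 20 in each line, and the 3 neural ones to 16 and 14. H3K9ac sums were 45 in each line for endothelial, 47 and 38 for leukocyte, and 41 and 35 for fibroblast and pericyte markers. They were 30 and 26 for epithelial, 25 and 22 for lung, and 12 and 17 for neural ones. Over all promoters the mean H3K9ac difference was -0.54 peaks. No marker promoter was at 0 for any of the 3 promoter marks, and the mean H3K4me3 number per promoter lay between 3.88 and 5.50 in every list. Mean H3K27me3 lay between 5.0 and 6.33 in LLC-NR and between 6.0 and 6.75 in LLC-R, beside 5.58 and 6.48 for the guidance genes. Bivalent in LLC-NR and LLC-R were 4 and 7 endothelial, 6 and 5 leukocyte and 3 and 5 epithelial markers. All fibroblast and pericyte and all lung markers were bivalent in each line, and 2 neural ones were. High H3K27me3 and the bivalent state were thus not particular to guidance genes. The part of cell composition in the differences between the tumors was not tested.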

How the data were processed

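Chromatin of LLC-NR and LLC-R isografts was profiled by ChIP-seq, 1 library for each line and mark. The authors aligned reads to mm9 with Bowtie (version 0.12.7, per the submitters' processing notes), kept uniquely mapped reads and called peaks of fixed width with GeneTrack, whose settings are not given in the sources used here. The deposited files give only where each peak lies (chromosome, start, end), so the unit is a position, not a read count or signal. No input or mock library was used here. Peaks weakly and strongly covered by reads count alike, and depth of reads behind a peak is unknown.

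Midpoints were counted with Python 3.11.15, NumPy 2.4.6 and pandas 2.3.3 in promoters and gene bodies of GENCODE vM1 genes. Where a symbol had several models (22367 models for 22225 symbols, 67 for the 66 members), the longest was kept. The TSS was the one shared by most transcripts of the gene, and the most upstream of them where several tied. A promoter was an HCP if a 500 bp interval in it had at least 55% GC and an observed to expected CpG ratio of at least 0.6, and low-CpG if no interval reached a ratio of 0.4. Promoter numbers were compared unscaled and gene bodies after scaling to total peaks. Exact Clopper-Pearson intervals (95%) were from SciPy 1.17.1, and figures were drawn with Matplotlib 3.10.9. Counting and calling were checked on simulated peaks.

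Named genes were the 13 members with a known role in vessels, the 3 largest differences of each promoter mark in each direction, the 4 highest and 4 lowest H3K36me3 body ratios, the 3 longest genes and the extremes of CpG content. Other genes were named after their values were seen. The members and lists were chosen with earlier results of these data known. Alternatives were other promoter intervals, overlap rules, TSSs, thresholds, scalings and body definitions. With 1 library per group there was no replicate to leave out.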

Additional observations from a re-analysis of the deposited data

How the results depend on the processing

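With 1 library per group no replicate could be left out, and no test was made that an alternative could change. Of 120 alternative values for 26 shares and counts, 75 stayed within the interval of the reported share or within 1.5 times the reported count, and 45 moved further. The excess of H3K27me3-rich guidance promoters over all promoters was present under each interval, TSS and overlap rule tried. That of bivalent ones was present with the HCP mean as threshold and with the wider interval. Numbers are whole peaks, so the HCP mean as H3K27me3 reference and the median as state threshold gave the same shares as the main setting. These alternatives show nothing further, though they are among the 75 that stayed. The share of guidance promoters at or above the mean moved as follows. From -0.5 to +0.5 kb it was 69.7% (LLC-NR) and 63.6% (LLC-R) for H3K4me3, 34.8% (LLC-R) for H3K9ac and 68.2% (LLC-NR) for H3K27me3, where all promoters had 54.4%, 46.9%, 46.8% and 41.1%. From -1 to +1 kb it was 59.1% for H3K9ac in LLC-R (all promoters 65.4%). Counting any overlap it was 42.4% and 50% for H3K9ac in LLC-NR and LLC-R and 97.0% for H3K27me3 in LLC-R (all promoters 50.4%, 58.9% and 71.3%). Against the HCP mean it was 30.3% and 45.5% for H3K4me3 and 33.3% for H3K9ac in LLC-R (all promoters 24.6%, 37.0% and 42.5%), and bivalent promoters were 62.1% and 56.1% against 40.9% and 38.6% of all promoters.

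The shares of changed promoters depended on scale and size of call. Scaled by the study's uniquely mapped reads, H3K4me3 was lower at 6.06% and higher at 27.3% of members (all promoters 7.33% and 24.7%). H3K9ac was lower at 0% and higher at 84.8% (all promoters 1.41% and 79.4%). H3K27me3 was lower at 86.4% and higher at 0% (all promoters 66.2% and 0.567%). Scaled by total peaks, and likewise by background windows, H3K27me3 was lower at 13.6% and higher at 9.09% (all promoters 14.9% and 12.3%). Differences of at least 3 peaks were found at 4.55% and 1.52% for H3K4me3 (lower and higher), 6.06% and 3.03% for H3K9ac, and 0% and 10.6% for H3K27me3, where all promoters had 5.26% and 2.48%, 6.39% and 1.10%, and 0.517% and 13.0%. Counting any overlap, H3K27me3 was lower at 0% (all promoters 3.63%).

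For the 45 gene bodies a threshold of 0.1 gave 9 lower and 11 higher for H3K4me3, 1 and 4 for H3K9ac, 19 and 14 for H3K27me3, and 9 and 15 for H3K36me3. Relative to flanks, H3K4me3 was higher in 2 and H3K27me3 lower in 5 and higher in 5. In the 31 bodies of at least 50 kb, H3K4me3 was lower in 2 and higher in 3, and H3K27me3 lower in 6 and higher in 5. The shares over all gene bodies were not computed in these settings, so these counts cannot be set against the background. Peaks carry no height, no promoter held more than 9, and weak and strong peaks count alike. No paired analysis was possible because each group has 1 library.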
